A study of Cicer arietinum with 8 samples.

Results

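A set of 127 chickpea gene models stood lower in root under desiccation, salinity and cold than in the root control, while their levels in shoot stayed near the shoot control. They were chosen from 27248 annotated gene models on the log2(FPKM + 1) scale, where FPKM is fragments scaled by exon length and by the mapped fragments of the library. A member had a change of -1.5 or lower from the root control in each of the 3 stressed root libraries, a change of less than 1 in either direction in each of the 3 stressed shoot libraries, and at least 1 FPKM in at least 1 shoot library. The root falls and the flat shoot levels therefore chose the members and are given here as a description, without a test.

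The RNA came from roots and shoots of 10-day-old seedlings of Cicer arietinum, genotype ICC4958. For 5 h the controls were held in water, the desiccation group on folded tissue paper, the salinity group in 150 mM NaCl, and the cold group in water at 4 ± 1 °C. Each tissue and treatment is represented by 1 library, 8 in all, so no value below has a replicate error and differences between single libraries have no replicate check. The sources do not say how many plants a library pools, or whether root and shoot came from the same plants. All groups share the genotype, age and duration, and all 3 root comparisons share 1 root control library. A high level particular to that 1 library and a fall in the 3 stressed libraries cannot be told apart here.

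Roots are the organ that takes up water and mineral ions, and they are the first to meet a drying or saline surrounding. Water deficit and salt both lower the water available to root cells, salt adds sodium and chloride ions, and cold slows membrane transport and water uptake. Slower root growth and a large change of the transcriptome, part of it through the hormone abscisic acid, are known responses of plants to all of these stresses. The files give the gene models by ID alone, and none of these IDs is in the RefSeq gene table used here, so no name, function, sequence or position is given for a member, and no pathway could be followed. For the same reason the tissue labels could not be checked against marker genes.

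The 8 libraries were similar in the number of annotated gene models that reached 1 FPKM, from 15437 in the root control to 15632 in cold shoot. Relative depth was read from low values, which change in steps of 1 fragment. It was 1.21 to 1.30 times that of the root control in the other libraries, so the root control was the shallowest. Loci without an annotated gene held 48.0% to 54.1% of all FPKM in root and 73.2% to 78.7% in shoot.

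Before stress the members were expressed in root, where the fall that the rule asks for favours a high control level. Their FPKM in the root control ran from 3.01 to 810, with a median of 35.1, and 100 of the 127 stood at 10 FPKM or more, 30 of them at 100 FPKM or more. No share of all annotated gene models was worked out for these marks, so the counts are a description. Their median was 3.54 FPKM in desiccated root, 5.06 FPKM in salt-stressed root and 3.21 FPKM in cold root. In shoot the median was 13.5 FPKM in the control, 12.5 under desiccation, 13.1 under salinity and 14.2 under cold. The members together made up 1.58% of the FPKM of annotated gene models in the root control, and 0.240%, 0.313% and 0.246% of it in desiccated, salt-stressed and cold root. In shoot this share lay between 0.898% (desiccation) and 1.10% (cold). In bulk tissue, fewer cells of a type and less RNA per cell cannot be told apart.

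**Figure D1:**
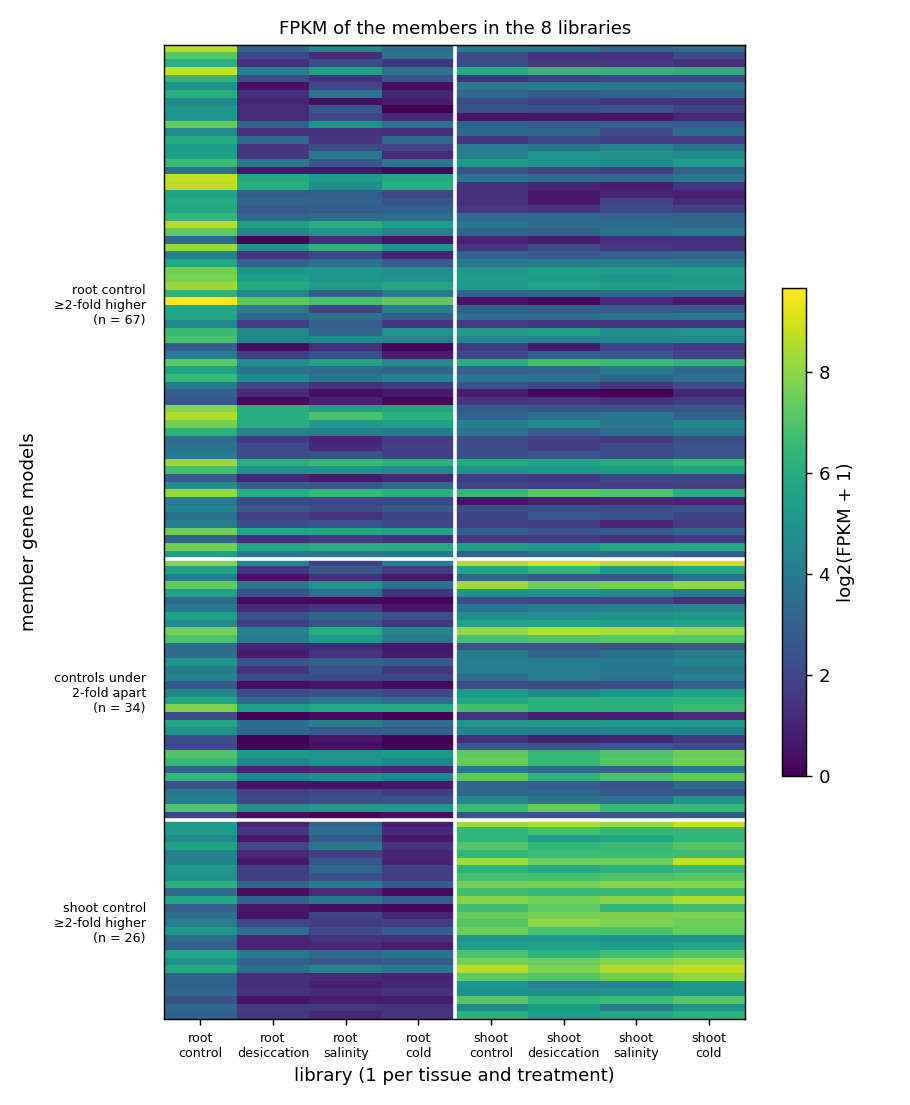
Each row is 1 of the 127 members and each column 1 of the 8 libraries, with colour giving log2(FPKM + 1). Rows are grouped by the difference between the control libraries and, within a group, ordered by the mean root change. The root control column is brighter than the 3 stressed root columns throughout, as the rule requires, and the bottom 26 rows are brightest in shoot.

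The change from the root control had a median over the members of -2.38 under desiccation (range -5.32 to -1.52), -2.17 under salinity (-5.97 to -1.51) and -2.52 under cold (-5.20 to -1.52). Over all annotated gene models with at least 1 FPKM in either library, the medians were 0.06, 0.01 and 0.02, and 3.28%, 5.03% and 3.84% of these had a change of -1.5 or lower. Since these contrasts chose the members, nothing is read from the gap. A fall of 2 or more in every root comparison was reached by 53 members, and a fall of 3 or more by 9.

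The shoot conditions of the rule kept 127 of the 221 annotated gene models that fell by 1.5 or more in all 3 root comparisons. Another 26 stayed under 1 FPKM in every shoot library. The remaining 68 moved by 1 or more in at least 1 stressed shoot library, 30 of them upwards and 38 downwards, and no gene model moved both ways. Of these 68, 58 moved under desiccation, 33 under salinity and 3 under cold. The 68 were picked for a move in shoot, so the base of these counts is the 195 of the 221 that reached 1 FPKM in a shoot library. Over all annotated gene models with at least 1 FPKM in either shoot library, 19.3%, 11.1% and 2.69% moved by 1 or more, in the same order of stresses. These are not shares of gene models picked for a move, so they cannot be set against the 68. With the salinity libraries of both tissues left out, 278 gene models met the rule for desiccation and cold. Leaving out desiccation gave 188 and leaving out cold gave 146. Each of these counts drops a shoot condition along with a root condition.

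Ca_00839 had the lowest mean root change. The root control gave 385 FPKM, against 8.69 FPKM under desiccation, 23.2 under salinity and 9.93 under cold. In shoot it stood at 13.8 FPKM in the control and at 12.5, 7.94 and 9.96 FPKM under the same stresses. The root control was the highest library, salt-stressed root was also above every shoot library, and desiccated and cold root lay within the range of the shoot libraries. Its root changes were -5.32, -4.00 and -5.14. Ca_00838, the ID numbered just before it, was also a member, with 161 FPKM in the root control and 7.33, 34.04 and 11.6 FPKM under the stresses in the same order.

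Consecutive ID numbers occurred among 10 members, as 2 runs of 3 and 2 runs of 2. The other pair was Ca_13367 and Ca_13368, and the longer runs were Ca_14557 to Ca_14559 and Ca_17068 to Ca_17070. The share to set beside this over all annotated gene models was not worked out, so the count of 10 is a description. In the run Ca_14557 to Ca_14559 the root control levels were 8.75, 31.9 and 23.5 FPKM, and no stressed root level was above 4.88 FPKM. Ca_14558 was listed at 0 in cold root, where an exact 0 in FPKM can also be a failed estimate. In the run Ca_17068 to Ca_17070 the root control levels were only 3.65, 3.71 and 9.53 FPKM. Ca_17068 was listed at 0 in desiccated root, and Ca_17069 in desiccated and cold root. How these gene models lie in the genome was not analysed here.

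The other members with the lowest mean changes differed in which stress lay lowest, in their root control level and in their shoot level. Ca_11332 went from 138 FPKM in the root control to 3.22 under desiccation, 1.40 under salinity and 11.7 under cold, and in shoot it stayed between 1.59 and 3.61 FPKM. Ca_05059 went from 452 FPKM to 16.7, 44.7 and 11.3 FPKM in the same order, with shoot levels of 60.9 to 84.03 FPKM. For Ca_11332 salinity was the lowest root library, and for Ca_05059 it was the highest of the stressed ones. Ca_13008 and Ca_03415 had root control levels of 69.8 and 76.8 FPKM and no more than 4.83 FPKM in any other library, root or shoot. Ca_05742 went from 29.998 FPKM to 0.338, 3.14 and 0.26 FPKM in root, against 13.3 to 16.5 FPKM in shoot. That gene model was higher in root than in shoot in the control and lower in root than in shoot under each stress.

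**Figure D2:**
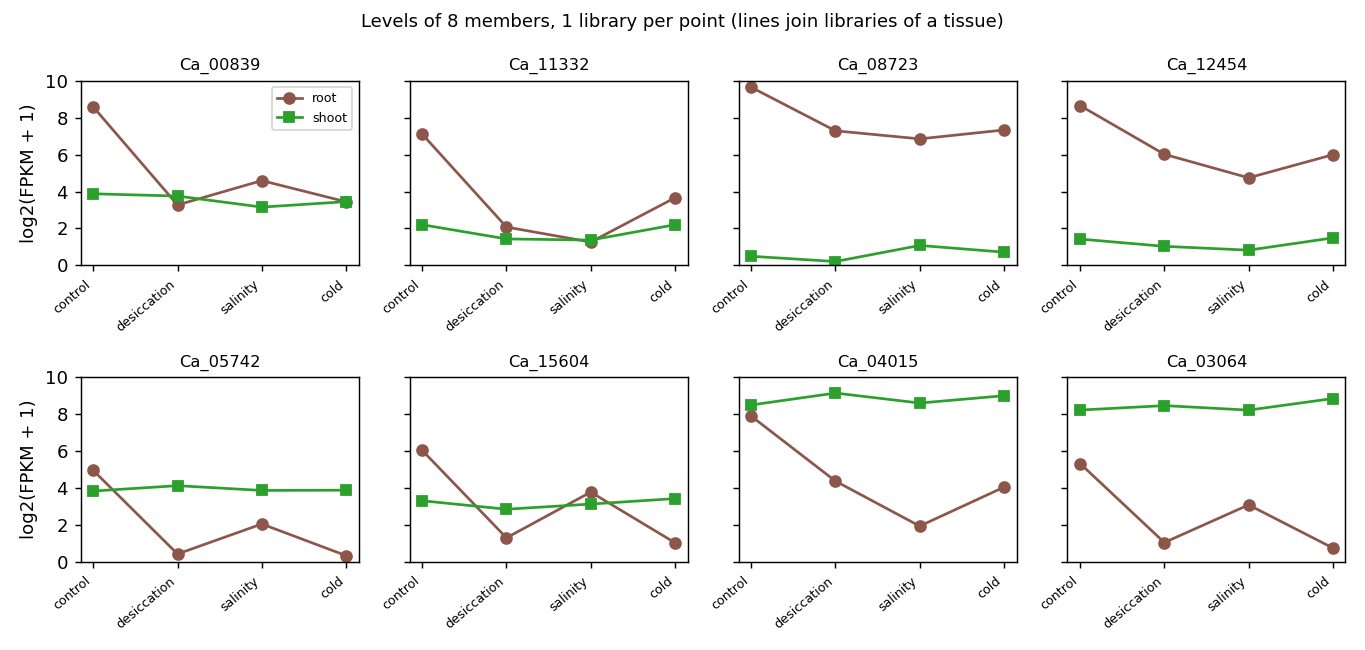
Each panel shows 1 of 8 members, with log2(FPKM + 1) on the y axis and the treatment on the x axis, and each point is 1 library. Root (brown circles) drops from the control in every panel, and shoot (green squares) changes by less than 1, as the rule requires. The pseudocount of 1 shrinks changes at low levels: Ca_11332 had 3.61 FPKM in control shoot and 1.59 FPKM in salt-stressed shoot. For Ca_08723 and Ca_12454 root stays above shoot, and for Ca_04015 and Ca_03064 it is below shoot throughout.

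The next question was where the members stood in root relative to shoot before stress, a contrast the rule did not use, although both libraries entered it. In the control libraries 67 members (52.8%) were at least 2-fold higher in root and 26 (20.5%) at least 2-fold higher in shoot, on the log2(FPKM + 1) scale. The other 34 were less than 2-fold apart. Among all 16647 annotated gene models considered, 19.5% were at least 2-fold higher in the root control and 19.5% at least 2-fold higher in the shoot control, 39.1% in all. The share of members higher in shoot was thus near the background. The share higher in root was above it, and a rule that asks for a fall from the root control favours a high root control. The median difference, root minus shoot, was 1.13 over the members and -0.02 over all annotated gene models considered.

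The 67 members with the higher root control had a median of 60.6 FPKM in the unstressed root. Their medians under desiccation, salinity and cold were 7.70, 6.68 and 8.17 FPKM in root, and 6.90 FPKM was the median of the shoot control. These medians hide a wide spread: under stress all 3 root libraries were above all 4 shoot libraries at 19 of the 67 and below all 4 at 14. The member with the highest root control level was Ca_08723, with 810 FPKM there and 157, 115 and 161 FPKM under desiccation, salinity and cold. In shoot it stood at 0.407, 0.154, 1.11 and 0.643 FPKM in control, desiccation, salinity and cold. It was still far above shoot in every stressed root library, and it met the shoot minimum of the rule through the salinity library alone. Ca_12454 likewise stood at 406 FPKM in the root control, at 64.1, 25.9 and 63.1 FPKM in the stressed roots, and at 0.77 to 1.80 FPKM in shoot. Ca_03868 and Ca_10985, at 434 and 389 FPKM in the root control, kept 37.2 to 59.7 and 41.3 to 68.5 FPKM under stress, above their highest shoot levels of 13.8 and 12.8 FPKM.

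The 26 members with the higher shoot control were lower in root than in shoot to begin with, as the grouping requires. Their median was 19.0 FPKM in the root control. Under desiccation, salinity and cold the root medians were 1.72, 3.19 and 1.58 FPKM, and the medians of the 4 shoot libraries ran from 100.03 to 135 FPKM. Ca_03064 had 39.2 FPKM in the root control, and its stressed root levels were 1.06, 7.49 and 0.677 FPKM under desiccation, salinity and cold. Its shoot levels were 299 FPKM in the control and 354, 299 and 462 FPKM under the stresses. Ca_08665 stood at 56.9 FPKM in the root control, at 10.8, 18.9 and 13.0 FPKM in the stressed roots and at 217 to 433 FPKM in shoot. Root and shoot levels of these gene models did not overlap in any treatment. The root control level of the 26 was 2.94% to 45.8% of the shoot control level, with a median of 20.6%.

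Shoot RNA in a root library would appear first at gene models that are very high in shoot and low in root. The 100 annotated non-members with the highest ratio of mean shoot to mean root FPKM, among those with a mean of at least 100 FPKM in shoot, were chosen as such a list after the values were seen. Their summed FPKM was 653 in the root control, 357 in desiccated, 620 in salt-stressed and 460 in cold root, or 0.585%, 0.319%, 0.555% and 0.411% of their sum in the shoot control. The corresponding shares of the 26 shoot-high members were 18.2%, 2.47%, 3.95% and 2.13%. By its sum the list was highest in the root control, where 46 of its gene models had their highest root level. The matching share of all annotated gene models was not worked out. In the root control 9 were listed at 0, against 8, 12 and 7 in desiccated, salt-stressed and cold root. The list was chosen for low root levels and the members for a high root control, so the shares cannot be set against each other, and the part of shoot RNA in the result was not tested.

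Among the members with like control levels in both tissues were some of the most abundant in shoot. Ca_04015 stood at 238 FPKM in the root control, at 19.8, 2.82 and 15.5 FPKM in desiccated, salt-stressed and cold root, and at 362, 568, 390 and 513 FPKM in shoot control, desiccation, salinity and cold. Its salinity change in root, -5.97, was the lowest of any member in any root comparison. Ca_05340 went from 198 FPKM to 19.2, 63.1 and 20.05 FPKM in root, against 280 to 400 FPKM in shoot. Both were less than 2-fold apart between the control tissues, and both were lower in root than in shoot in every stress.

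**Figure D3:**
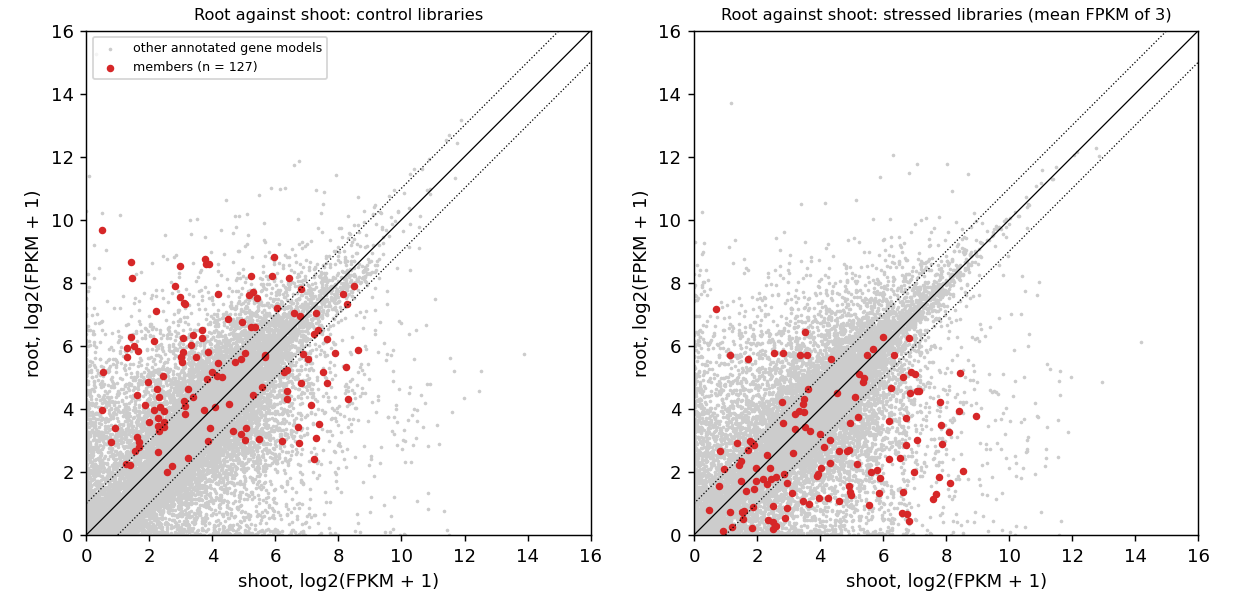
Root level against shoot level, both as log2(FPKM + 1), for the control libraries (left) and for the mean FPKM of the 3 stressed libraries of each tissue (right). Red points are the 127 members, grey points the other annotated gene models, the solid line equal levels and the dotted lines 2-fold differences; the members lie mostly above the line in the control and mostly on or below it under stress.

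Under stress all 3 root libraries lay below all 4 shoot libraries for 74 members (58.3%), against 21.0% of the 17279 annotated gene models considered. All 3 lay above all 4 shoot libraries for 19 members (15.0%), against 22.1%, and for the other 34 the levels overlapped. The 74 hold all 26 shoot-high members, all 34 with like control levels and 14 of the 67 root-high ones. For 27 members (21.3%) the root control lay above every shoot library and all 3 stressed root libraries lay below every shoot library, against 0.502% of the 17329 annotated gene models considered. The rule favours a high root control and low stressed root levels, so these counts are a description and nothing is read from the gaps.

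Over all 4 treatments the tissues were compared with limma, in an additive model of tissue and treatment fitted to 21907 loci, in which all 127 members were tested. With a Benjamini-Hochberg adjusted p under 0.05, 45 members (35.4%) were higher in shoot and 14 (11.0%) higher in root, against 17.3% and 18.1% of the 16477 annotated gene models tested. The 3 stressed libraries that the rule required to be low make up most of the root mean, which leans the members towards shoot, and the falls themselves count as residual spread here. Nothing is read from the gap between these shares and the background. The median difference, root minus shoot, was -0.76 over the members and 0.05 over the annotated gene models tested. Ca_08723 had the clearest excess in root among the members named so far, 7.17 above shoot on the log2 scale (SE 0.53, adjusted p = 0.000136 with limma), higher in root in 4 of 4 treatments. At Ca_03064 root minus shoot was -5.89 (SE 0.83, adjusted p = 0.0022 with limma), and root was lower in 4 of 4 treatments. Ca_00839 did not pass (limma adjusted p = 0.239). It was named for its root falls, which count as residual spread, so the miss says nothing about a tissue difference. The spread behind these p-values is that between libraries of different treatments, not between replicates. Ca_08723 was named for its root control level and Ca_03064 for its shoot level, and the rule required their 3 stressed root levels to be low. Their p-values thus rest on values that picked them and are a description.

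The stressed root libraries can be compared with each other without the shared control. Between cold and desiccated root 3 members (2.36%) were at least 2-fold apart, against 3.15% of the annotated gene models considered (1.23% higher under cold, 1.92% higher under desiccation). The member share is of all 127, of which 105 reached 1 FPKM in either library, as every gene model of the background did. No result about the members is read from it. The 3 were Ca_11332, which was higher under cold, and Ca_14558 and Ca_12752, which were lower under cold. Ca_12752 was named for this count after its values were seen, and it stood at 14.6 FPKM in the root control, 2.55 under desiccation, 4.41 under salinity and 0.659 under cold.

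In either direction, 33 members (26.0%) were at least 2-fold apart between salt-stressed and desiccated root and 34 (26.8%) between salt-stressed and cold root. The backgrounds were 26.8% and 25.5%. The member shares given for stressed roots are of all 127, whereas the backgrounds leave out gene models under 1 FPKM in every library compared. Of the members, 115 reached 1 FPKM in salt-stressed or desiccated root and 113 in salt-stressed or cold root. The bases thus differ, and no result about the members is read from these shares. By direction, salt-stressed root was at least 2-fold above desiccated root at 24 members (18.9%) and at least 2-fold below it at 9 (7.09%), against 13.3% and 13.5% of all annotated gene models considered. Against cold root it was at least 2-fold higher at 26 members (20.5%) and lower at 8 (6.3%), against 14.5% and 11.0%. Salinity was the highest of the 3 stressed root libraries at 79 members (62.2%), desiccation at 32 (25.2%) and cold at 16 (12.6%), against 42.4%, 33.8% and 23.8% of the 16317 annotated gene models considered. The lowest was cold at 59 members (46.5%), salinity at 37 (29.1%) and desiccation at 31 (24.4%), against 29.1%, 45.4% and 25.5%. The rule used the change of each of these libraries from the control, so the shares are a description.

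At 20 members (15.7%) salt-stressed root was at least 2-fold above both other stressed roots, against 10.9% of the annotated gene models considered. Ca_15604 had the widest range among the 3 root changes: it went from 64.9 FPKM in the root control to 1.46, 12.7 and 1.04 FPKM under desiccation, salinity and cold. In shoot it stayed between 6.21 and 9.75 FPKM. Ca_09918 went from 42.5 FPKM to 1.95, 13.1 and 1.23 FPKM in root, and Ca_08117 from 46.9 FPKM to 3.17, 14.2 and 1.59 FPKM. In all of these, salt-stressed root kept more of the control level than desiccated or cold root. The opposite order, with salinity at least 2-fold below both, was found at 6 members (4.72%), Ca_04015 and Ca_12454 among them, against 8.90%. The bases of these shares differ as above, and the rule used all 3 libraries. No result about the members is read from them.

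**Figure D4:**
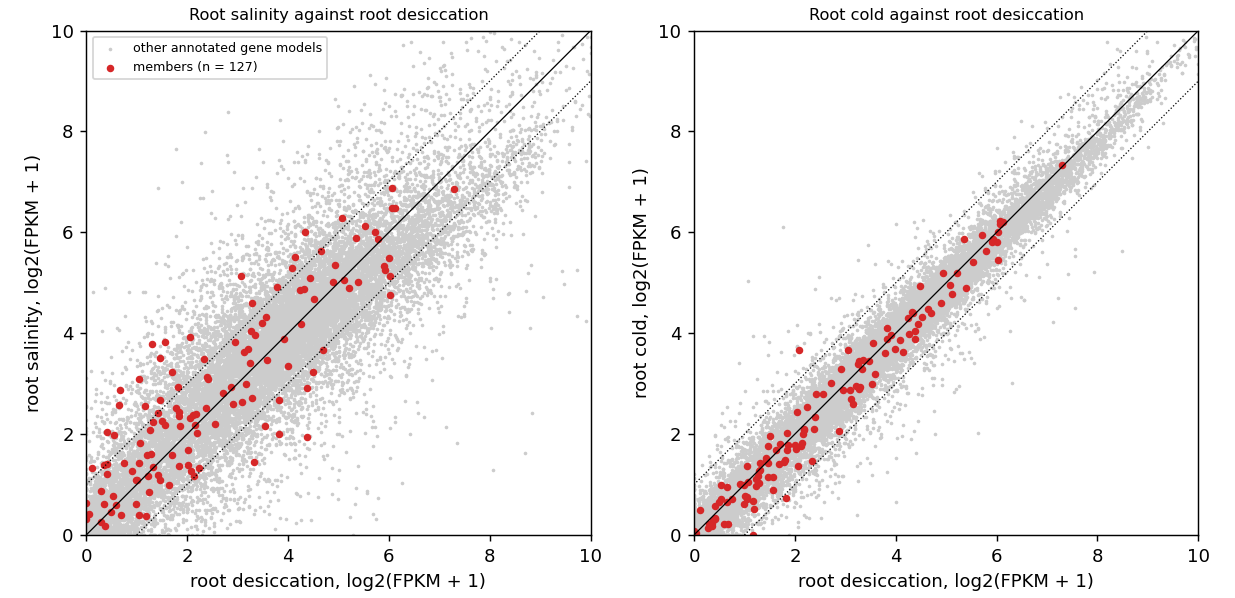
Level in salt-stressed root (left) and cold root (right) against desiccated root, all as log2(FPKM + 1), with members in red and other annotated gene models in grey; axes end at 10, above every member. Solid lines mark equal levels and dotted lines 2-fold differences: 33 members lie outside the dotted lines for salinity and 3 for cold.

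In shoot the members moved little, as the rule requires, and the signs were mixed. The median change was -0.12 under desiccation, -0.12 under salinity and 0.12 under cold. Desiccated shoot was above the control at 52 members and below it at 75, salt-stressed shoot at 51 and 76, and cold shoot at 84 and 43. For these medians and counts per stress no value over all annotated gene models was worked out. A shift of a whole library and a trait of the members therefore cannot be told apart in them. All 3 changes were positive at 29 members (22.8%) and negative at 28 (22.0%), against 20.6% and 25.8% of the 12544 annotated gene models that meet the shoot conditions of the rule.

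The limits of the rule pass through a continuous range of values. Just inside the root limit lay Ca_09297, Ca_16296 and Ca_03176, whose weakest root change was under salinity, at -1.51 in each. Just outside lay Ca_05897, at -1.49985 under cold, Ca_07246, at -1.49 under desiccation, and Ca_05635, at -1.48 under salinity. Just inside the shoot limit lay Ca_06891, at -0.996 in salt-stressed shoot, and Ca_09464, at -0.99 in desiccated shoot. Just outside lay Ca_01585, at 1.03, and the locus that carries both Ca_04169 and Ca_04170, at -1.04, each in desiccated shoot. Among the 127 members 4 stood at loci with several IDs or with an ID used more than once, and 4 were listed at 0 in at least 1 library.

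Outside the members, the annotated gene models whose levels over the 8 libraries followed the members' mean log2 level most closely were Ca_06399 (Pearson's r = 0.993), the locus of Ca_05759 and Ca_05760 (0.965) and Ca_04437 (0.954). These values describe likeness over libraries that include those that chose the members. Ca_06399 fell less than the rule asks, from 78.8 FPKM to 33.03, 34.7 and 30.3 FPKM in desiccated, salt-stressed and cold root, and stood at 55.4 to 60.3 FPKM in shoot. Ca_04437 fell more, from 20.7 FPKM to 0.0827, 1.36 and 0.201 FPKM, and was left out because its level in desiccated shoot, 15.1 FPKM, was 1.11 above the shoot control on the log2 scale.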

How the data were processed

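The deposited files give FPKM per locus, 1 file per library. Per the labels and design text, NGS QC Toolkit was used by the authors to filter reads, TopHat to map them to an annotated chickpea genome and Cufflinks to compute FPKM. For versions, build and annotation, the sources used here give nothing. Each value is relative to its library's total, so abundant transcripts lower all others, and total read numbers are not in the files. The values were used as deposited, with a pseudocount of 1. Members were found by fixed limits on log2(FPKM + 1). Named gene models follow a rule: the 10 with the lowest mean root change, the 6 highest in the root control, the 4 highest in shoot, the 4 with the widest range of root changes, those next to the limits, and the 3 non-members most like the mean. Members, limits and tests were chosen with earlier results of these data known.

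Tissues were compared in R 4.3.3 by limma 3.58.1, with treatment as covariate and a trended prior, on loci averaging at least 1 FPKM. Python 3.11.15, numpy 2.4.6, pandas 2.3.3 and matplotlib 3.10.9 made the tables and figures. Both steps were run on simulated data with planted differences, which checks the code and not the results here. Alternatives were other pseudocounts, scalings, minimums, limits and libraries.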

Additional observations from a re-analysis of the deposited data

Results flagged for a closer look

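At 29 members every stressed shoot library was above the shoot control, while every stressed root library was below the root control. The contrast between root and shoot was not tested, since each change rests on 1 library. The rule fixed the root direction and held the shoot changes under 1, some of them close to 0. The 29 members are 22.8% of all members, near the 20.6% of the annotated gene models that meet the shoot conditions of the rule. All 3 shoot changes were negative at 28 members (22.0%), against 25.8%. No result about the members is read from these shares.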

How the results depend on the processing

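Each library is the only one of its group, so the membership and every fold rest on single libraries. No paired analysis by replicate number was possible because each group has 1 library. The tissue fit pairs root and shoot by treatment, and without the treatment term it called 58 members. The number of members was 277 with a root limit of -1, 53 with a root limit of -2, 54 with a shoot limit of 0.5, and 278 without the salinity libraries in the rule. A pseudocount of 5 gave 87, of which 67 were members, and a pseudocount of 0.1 gave 138, of which 107 were. Rescaling by median ratios gave 133, all 127 members among them. With a 4-fold mark, 61 members were apart between the control tissues, 7 between root desiccation and salinity, 11 between root salinity and cold, and 0 between root desiccation and cold, where no test was made. A pseudocount of 5 gave 17, 20 and 1 for these root pairs. For root desiccation and cold a pseudocount of 0.1 gave 6 and a minimum of 5 FPKM gave 1. Without the filter limma called 34 members between tissues, with more loci tested. Leaving out a treatment's libraries gave 47 (cold) to 78 (control). Other alternatives stayed within 1.5 times of the reported counts. The tissue difference of Ca_08723 passed with limma under 12 of 12 alternatives (adjusted p from 1.16e-05 to 0.00672), as did that of Ca_03064 (0.000429 to 0.033), and that of Ca_00839 passed under 0 of 12 (0.151 to 0.643). Ca_08723 was named for its high root control and Ca_03064 for its high shoot level, so these passes are no independent support. Ca_00839 was named for its root falls, which count as residual spread in the fit, so its misses say nothing.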

Other observations

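The same limits were met by 42 of the 6945 loci without an annotated gene (0.605%), against 0.466% of the annotated gene models. The mirrored rule, a rise of 1.5 or more in all 3 root comparisons with a flat shoot, was met by 53 annotated gene models. A fall of 1.5 or more in all 3 shoot comparisons with root changes under 1 and at least 1 FPKM in a root library was met by 1.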
